A study of Tachysurus fulvidraco x Tachysurus vachelli with 9 samples.

Results

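Amino acids and short peptides leave the gut lumen through carrier proteins of the solute carrier (SLC) families. The genes described here are those whose symbol in the annotation places them in SLC family 1, 3, 6, 7, 15, 36, 38 or 43, together with genes whose product text names 1 of these families. There were 32 such members among the 26163 genes of the expression table. The symbol gave 28 of them and the product text 5, with 1 found by both. RNA was sequenced from the posterior intestine of hybrid yellow catfish, a cross of a *Tachysurus fulvidraco* female and a *Pseudobagrus vachellii* male. The Ctrl group held untreated fish, the Str group fish after 16 h of simulated transport in oxygen-filled bags on a shaker, and the Rec group fish that were given 96 h in the control environment after 16 h of transport. Each group had 3 libraries from 3 individuals, and all fish came from the same breeding base. They were kept without food ahead of the transport, and the study's methods do not say whether the Rec fish were fed again. Ctrl is the study's group at the start of transport, and feeding in the bags is not described. Time without food and time of sampling may thus differ between Str and Ctrl along with transport, and cannot be told apart from it. The bag of each fish is unknown here, so the spread between the 3 libraries of a group may hold effects of a bag.

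Uptake across the enterocyte starts at the brush border, the folded membrane that faces the lumen. There PepT1 (*slc15a1*) takes up di- and tripeptides with protons, and amino acids enter through sodium-driven carriers such as the neutral carrier B(0)AT1, the imino acid carrier XTRP3 (*slc6a20*) and the glutamate and aspartate carrier EAAT3 (*slc1a1*). Cystine and basic amino acids enter through b(0,+)AT, a light chain that reaches the membrane bound to the heavy chain rBAT (*slc3a1*). On the blood side, light chains such as y+LAT1 (*slc7a7*) work with the heavy chain 4F2hc. Other members serve the cell's own needs for growth, for example ASCT2 (*slc1a5*), and some families also hold carriers for other substrates, such as the serotonin transporter (*slc6a4*).

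Transcript levels are given as FPKM, fragments counted per length of transcript and per depth of the library, so that levels can be compared between genes. Each log2 fold change comes from edgeR's quasi-likelihood F-test on the deposited counts of all 9 libraries and is given with its standard error (SE). A gene rose or fell where the two-sided p, adjusted by the Benjamini-Hochberg method over all 17244 tested genes, was below 0.05. Genes were tested where at least 3 libraries reached 1 FPKM. Library totals ran from 48605412 to 73110636 deposited counts. Small counts peaked at 4, 8 and 12, so a read pair may often have given 4 of them. Of the 32 members, 22 were tested and 10 stayed under 1 FPKM in every library.

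Members changed in both directions after transport. Between Str and Ctrl, 5 of the 22 tested members passed, against 5.88% of all tested genes. Those that fell were 2, *slc6a20* and *slc1a1*, and 3 rose, LOC113647756 (solute carrier family 43 member 3-like), *slc7a10* and *slc7a14*. Among all tested genes 3.1% fell and 2.78% rose in this comparison. Again 5 members passed in Rec vs. Str, against 9.15% of all tested genes: 2 rose, *slc6a20* and *slc6a4*, against 5.03% of all genes, and 3 fell, LOC113647756, *slc7a10* and *slc7a14*, against 4.11% of all genes. *slc7a14* entered the test only through its high values in Str, so the share of members that passed is a description. No member passed in Rec vs. Ctrl, either with edgeR (0% of all genes) or with DESeq2 (0.667%), and 1 member, *slc1a1*, had an unadjusted p below 0.05 there, as did 5.81% of all genes. Str vs. Ctrl and Rec vs. Str share the Str libraries, so the opposite directions are not independent of each other.

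**Figure D1:**
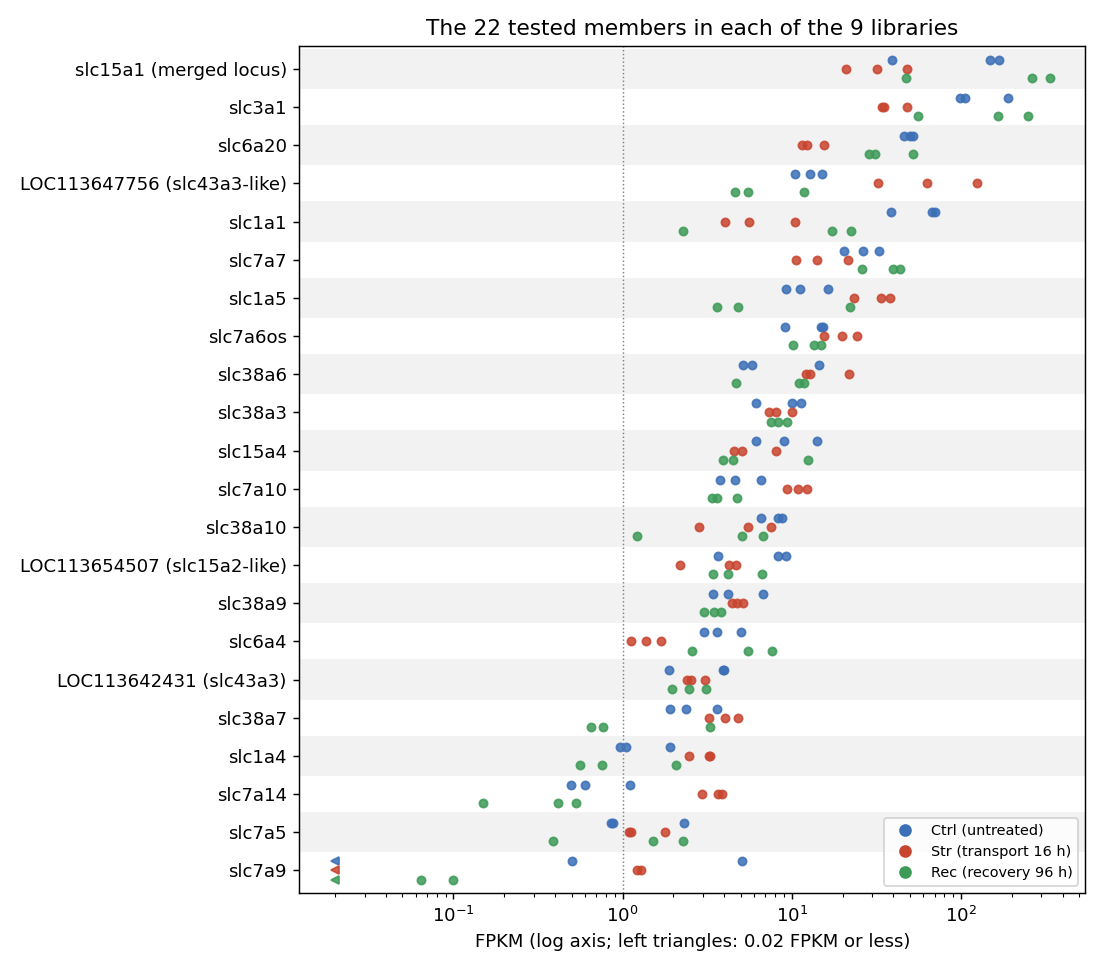
FPKM of the 22 tested members (rows, ordered by mean level) in each library, on a log axis; each point is a library, coloured by group, and the dotted line marks 1 FPKM. The Str points of *slc6a20* lie at 11.5 to 15.6 FPKM, below every Ctrl and Rec point, and those of LOC113647756 at 32.4 to 124 FPKM, above every Ctrl and Rec point.

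The most abundant member was the locus of *slc15a1*, which the annotation writes as LOC113654269 merged with LOC113654268, so that its reads cannot be assigned to either. It lies on scaffold NW_020847958.1 from 4321471 to 4361743 on the plus strand, in a build not given in the sources used here. Its levels were 168, 39.3 and 148 FPKM in Ctrl, 31.9, 48.1 and 21 in Str, and 336, 264 and 47.7 in Rec. Ctrl-2 and Rec-3 lay within the range of the Str libraries, so the groups overlapped. The log2 fold change was -1.81 (SE 0.80, adjusted p = 0.213) in Str vs. Ctrl and 2.84 (SE 0.83, adjusted p = 0.0645) in Rec vs. Str. Neither passed.

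*slc3a1*, the heavy chain rBAT, was the next in level (scaffold NW_020847795.1, 2970012 to 2977386, minus strand). It stood at 189, 106 and 98.4 FPKM in Ctrl, at 35.4, 48.3 and 34 in Str, and at 251, 167 and 55.8 in Rec. All Str libraries were below all Ctrl and all Rec libraries, with Rec-3 close to Str-2. The log2 fold changes, -1.75 in Str vs. Ctrl (SE 0.58, adjusted p = 0.112) and 2.15 in Rec vs. Str (SE 0.59, adjusted p = 0.0528), did not pass.

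*slc6a20* encodes XTRP3, a sodium- and chloride-dependent carrier of proline and other imino acids (scaffold NW_020847759.1, 738440 to 745620, plus strand). Levels were 52, 50 and 45.9 FPKM in Ctrl, 12.3, 15.6 and 11.5 in Str, and 52.2, 31.2 and 28.7 in Rec. Every Str library was below every other library, and 2 Rec libraries were below all Ctrl libraries. It fell by 1.87 on the log2 scale in Str vs. Ctrl (SE 0.33, adjusted p = 0.0167) and rose in Rec vs. Str by 1.62 (SE 0.33, adjusted p = 0.0212). With 1 library of the compared groups left out, the fall passed without Ctrl-1 or Str-2 and missed the threshold in the other 4 fits (highest adjusted p 0.0786), and the rise passed in 3 of 6 (highest 0.0894).

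*slc1a1*, the glutamate and aspartate carrier EAAT3, had the largest fall among the members called in Str vs. Ctrl (scaffold NW_020848008.1, 372605 to 386209, minus strand). It was at 70, 67.4 and 38.8 FPKM in Ctrl, at 4.05, 10.5 and 5.56 in Str, and at 22.4, 2.29 and 17.4 in Rec. The Ctrl libraries stood apart from both other groups, and Rec spread over the whole range of Str. The fall in Str vs. Ctrl was -3.11 on the log2 scale (SE 0.74, adjusted p = 0.0414), and it passed in 0 of the 6 fits with 1 library left out (adjusted p 0.0603 to 0.155). Rec differed from Str by 1.10 (SE 0.69, adjusted p = 0.353). *slc1a1* was the only tested member whose Rec libraries were all below all Ctrl libraries, as were those of 7.42% of all tested genes, with a log2 fold change in Rec vs. Ctrl of -2.01 (SE 0.71, unadjusted p = 0.0184, adjusted p = 0.824).

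These 4 members of the brush border, not all that act there, together made up 68.4% to 81.4% of the summed FPKM of the 31 carriers in Ctrl. Their share was 22.9% to 45.2% in Str and 58.9% to 84.3% in Rec. The 31 carriers are the members without *slc7a6os*, whose product is named as a nuclear localization protein of RNA polymerase II and which meets the rule only through its symbol. The summed level of the 31 carriers was 589, 384 and 461 FPKM in Ctrl, 272, 271 and 315 in Str, and 784, 561 and 254 in Rec, so Rec-3 held the lowest sum of all. The makeup shifted through LOC113647756 as well, which took 2.17% to 3.3% of the sum in Ctrl, 11.9% to 39.4% in Str and 0.989% to 1.83% in Rec. All 4 brush border members were chosen with earlier results of these data known and had a lower mean in Str than in Ctrl. *slc7a9*, a brush border light chain, and *slc1a5*, at 23.4 to 38.1 FPKM in Str against 9.29 to 16.3 in Ctrl, are not among them. These shares are a description, without a test, and cover the members alone: carriers of the same families listed only by product, described further on, include loci of higher level, up to 856 FPKM for LOC113634000 in Ctrl-1.

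**Figure D2:**
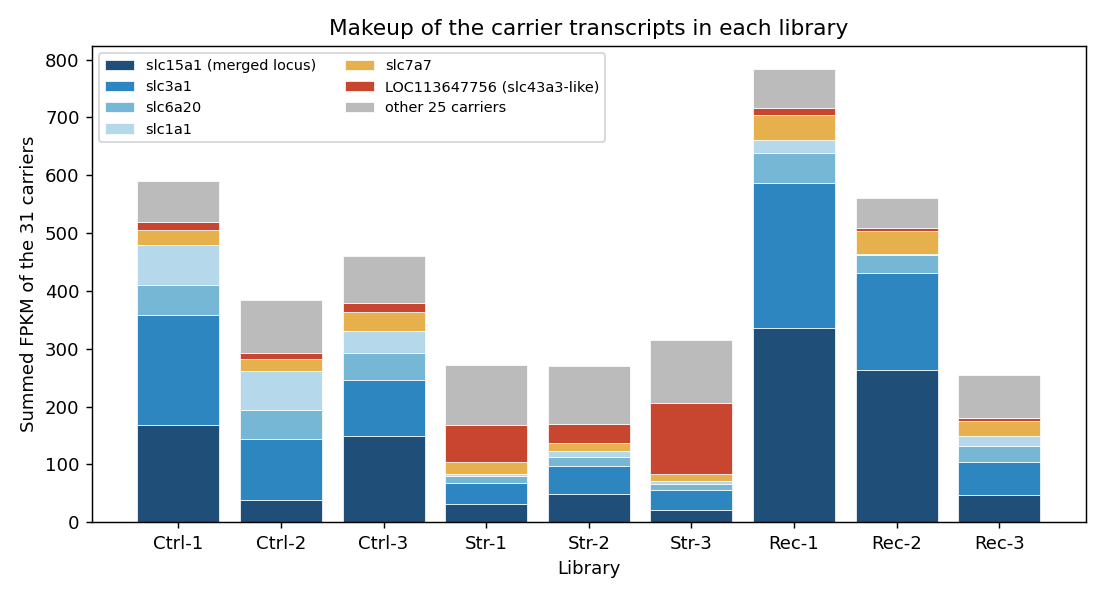
Summed FPKM of the 31 carriers in each library (bar height, linear axis from 0), split into the 6 most abundant carriers and the other 25. The blue parts are 4 chosen brush border carriers, *slc15a1*, *slc3a1*, *slc6a20* and *slc1a1*. They fill 68.4% or more of every Ctrl bar and 45.2% or less of every Str bar. The red part, LOC113647756, reaches 39.4% of the bar in Str-3.

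The summed markers of the absorptive cell were also lower in Str than in Ctrl. In Rec the marker loci differed among themselves, as did these 4 members. The summed FPKM of 7 loci for enterocyte markers was 3015 to 3957 in Ctrl, 1131 to 1713 in Str and 4225 to 5228 in Rec, with no locus at 0 in all libraries. LOC113651933 was the largest part of the sum in Ctrl and Str. LOC113650178 (CDX-1-like) overlapped between Str and Ctrl, at 69 to 171 FPKM against 122 to 209. LOC113654188 (aminopeptidase N), not tested, was higher in Str, at 0.931 to 2.28 FPKM against 0.408 to 0.675. The other marker loci were lower in Str than in Ctrl without overlap. Rec-3 had the highest marker sum, and *fabp2* alone gave 2491 FPKM of it. In Rec-3, *fabp2* and *vil1* lay above every Ctrl library, and the other marker loci below every one. Among the latter, LOC113651933 (aminopeptidase N-like) was at 1819 FPKM against 1844 to 2290 in Ctrl. The 4 carriers summed to 149 FPKM in Rec-3 against 262 to 479 in Ctrl, and *slc1a1* stayed below Ctrl in every Rec library. Of the 6 tested marker loci, 0 rose and 1 fell in Str vs. Ctrl (2.78% and 3.1% of all tested genes). In Rec vs. Str 3 were called higher and 0 lower (5.03% and 4.11%). *fabp2*, the intestinal fatty acid-binding protein, was at 662, 250 and 633 FPKM in Ctrl, 199, 95.5 and 109 in Str, and 1250, 1133 and 2491 in Rec. In bulk tissue, fewer enterocytes and less RNA per enterocyte cannot be told apart, and the part of this marker change in the carrier levels was not tested. Smooth muscle markers summed to 7371 to 17707 FPKM in Ctrl, 5110 to 29848 in Str and 11967 to 21083 in Rec, with overlap of all groups, so the gut wall was part of every sample.

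*slc7a7*, the light chain y+LAT1 that exports basic amino acids on the blood side in mammals, was at 26.3, 20.3 and 33 FPKM in Ctrl, 21.4, 14.2 and 10.6 in Str, and 43.7, 39.6 and 26.1 in Rec. Str overlapped Ctrl but lay below all Rec libraries. The log2 fold change was -0.74 (adjusted p = 0.268) in Str vs. Ctrl and 1.38 (SE 0.37, adjusted p = 0.0509) in Rec vs. Str, the latter just short of the threshold.

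*slc6a4*, the serotonin transporter, carries no amino acid but clears serotonin from the gut wall in mammals. Its levels were 3.03, 3.63 and 5 FPKM in Ctrl, 1.38, 1.13 and 1.69 in Str, and 5.51, 7.64 and 2.58 in Rec. The Str libraries were below all others. It rose in Rec vs. Str by 2.09 on the log2 scale (SE 0.44, adjusted p = 0.0248), which held without Rec-1 or Rec-3 and missed in the other 4 fits (highest adjusted p 0.0774). The difference from Ctrl in Str was -1.41 (SE 0.43, adjusted p = 0.0889). LOC113638635, a serotonin transporter-like locus listed only by product, was at 0.209 to 2.3 FPKM. Its groups overlapped and it did not pass (Rec vs. Str 0.40, SE 0.70, adjusted p = 0.769).

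Among the members that were higher in Str, LOC113647756 was the most abundant (scaffold NW_020847827.1, 1632426 to 1644356, plus strand). Its product is named as a family 43 member 3-like carrier, and human SLC43A3 is known as a carrier of purine nucleobases, not of amino acids. It was at 12.8, 10.4 and 15.2 FPKM in Ctrl, 63.3, 32.4 and 124 in Str, and 11.8, 5.55 and 4.64 in Rec. All Str libraries were above all others, and they differed among themselves more than the libraries of either other group. It rose by 2.54 in Str vs. Ctrl (SE 0.53, adjusted p = 0.0271) and fell by 3.19 in Rec vs. Str (SE 0.54, adjusted p = 0.0132). The rise passed only without Str-2 among the 6 fits with a library left out (highest adjusted p 0.101), and the fall in 5 of 6, missing at 0.0505 without Rec-2. The other locus of this kind, LOC113642431 (family 43 member 3), stayed at 1.88 to 3.98 FPKM in all libraries and did not pass (Str vs. Ctrl log2 fold change -0.20, adjusted p = 0.734).

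*slc7a10* is annotated as an asc-type carrier, which exchanges small neutral amino acids, D-serine included, in mammals. It stood at 4.64, 3.77 and 6.57 FPKM in Ctrl, 12.3, 9.33 and 10.9 in Str, and 3.36, 3.6 and 4.78 in Rec. Str was above both other groups without overlap. The rise in Str vs. Ctrl was 1.17 (SE 0.26, adjusted p = 0.0355) and the change in Rec vs. Str -1.36 (SE 0.27, adjusted p = 0.0191). The former passed in 0 of 6 fits with a library left out (adjusted p 0.0599 to 0.111) and the latter in 3 of 6 (highest 0.0613). With no filter on low values the adjusted p was 0.0561 and 0.0284.

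*slc7a14*, annotated as a probable cationic amino acid transporter, was low in all fish. Its levels were 0.598, 1.1 and 0.497 FPKM in Ctrl, 3.85, 2.95 and 3.67 in Str, and 0.528, 0.149 and 0.417 in Rec. Str lay above all other libraries, and since 1 library outside Str reached 1 FPKM, the gene was tested only because it was high in Str. Its log2 fold changes, 2.31 in Str vs. Ctrl (SE 0.52, adjusted p = 0.0351) and -3.18 in Rec vs. Str (SE 0.54, adjusted p = 0.0132), have to be read with that. The former passed in 0 of 6 fits with a library left out (adjusted p 0.0688 to 0.123) and the latter in 5 of 6. With no filter on low values the adjusted p was 0.0519 and 0.0164.

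**Figure D3:**
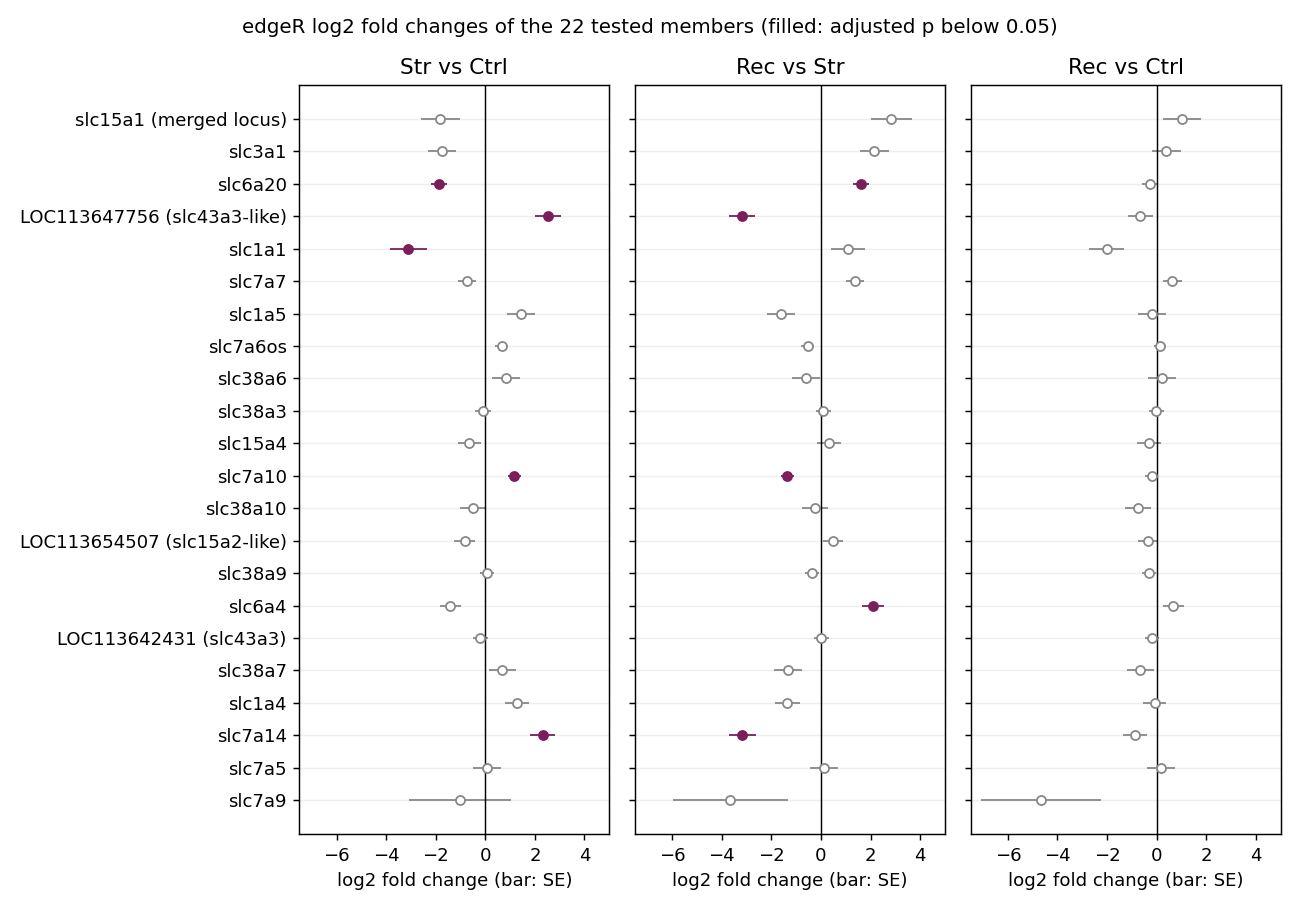
log2 fold change (x axis) with its standard error of the 22 tested members, from edgeR, with a panel for each comparison of the groups; filled points have an adjusted p below 0.05. The left and middle panels hold 5 filled points each and the right panel, Rec vs. Ctrl, holds 0.

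Both sodium-dependent exchangers of neutral amino acids in family 1 had their highest group mean in Str without passing. *slc1a5*, ASCT2, a glutamine carrier, was at 9.29, 16.3 and 11.2 FPKM in Ctrl, 23.4, 33.9 and 38.1 in Str, and 3.61, 4.79 and 22.2 in Rec. The log2 fold changes were 1.44 (SE 0.57, adjusted p = 0.172) and -1.61 (SE 0.58, adjusted p = 0.113) for Str against Ctrl and Rec against Str. *slc1a4*, ASCT1, was at 1.05, 0.964 and 1.91 FPKM in Ctrl, 2.47, 3.27 and 3.26 in Str, and 0.561, 0.754 and 2.07 in Rec. In both genes all Str libraries were above all others, and Rec-3 was the Rec library nearest to Str.

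Other members covered a range of roles, and *slc38a6*, *slc38a7* and *slc7a6os* among them also had their highest group mean in Str. *slc38a3*, a glutamine carrier in mammals, was at 6.18 to 11.3 FPKM over the 9 libraries and had a log2 fold change in Str vs. Ctrl of -0.10 (SE 0.31, adjusted p = 0.887). *slc38a9*, an amino acid sensor on the lysosome in mammals, was at 3.04 to 6.79 FPKM with a change of 0.06 (SE 0.28). *slc38a6* had levels of 4.72 to 21.7 FPKM, with 14.6, 5.81 and 5.14 in Ctrl and 21.7, 12.1 and 12.9 in Str, and a change of 0.82 (SE 0.57, adjusted p = 0.441). The Str values of *slc38a6* thus overlapped those of Ctrl.

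*slc38a7*, a lysosomal glutamine exporter in mammals, stood at 0.762, 0.647 and 3.28 FPKM in Rec against 4.03, 3.26 and 4.85 in Str (log2 fold change -1.33, SE 0.55, adjusted p = 0.160). Rec-3 lay inside the Str range here. *slc15a4* and LOC113654507 (family 15 member 2-like), the other peptide carriers, had log2 fold changes in Str vs. Ctrl of -0.64 (adjusted p = 0.470) and -0.84 (adjusted p = 0.257). *slc7a5*, the leucine carrier LAT1, was low at 0.389 to 2.32 FPKM, and *slc38a10* ran from 1.22 to 8.73 FPKM. *slc7a6os* was at 9.11 to 24.5 FPKM and did not pass either (Str vs. Ctrl 0.67, adjusted p = 0.158). Its Str libraries, at 15.6 FPKM or more, were all above the others, at 15.4 or less.

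*slc7a9*, the named locus of the light chain b(0,+)AT, was uneven between fish of the same group, with 0.503, 5.07 and 0 FPKM in Ctrl, 0, 1.22 and 1.29 in Str, and 0.0998, 0.0646 and 0 in Rec. Ctrl-2 alone was above 1.29 FPKM, and no fold change is given. Of the 10 untested members, *slc7a4* reached 0.784 FPKM, *slc6a15* 0.545, *slc6a17* 0.483 and *slc7a11*, the cystine and glutamate exchanger, 0.261. *slc6a5*, *slc6a9*, *slc6a11*, *slc6a14* and *slc7a2* stayed at or below 0.0532 FPKM. Most of these 5 are carriers of the transmitters GABA and glycine in mammals.

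An unadjusted p below 0.05 was found for 11 of the 22 members in Str vs. Ctrl (23.1% of all tested genes) and for 11 in Rec vs. Str (26.3%). With the study's screening thresholds, at least 1 on the log2 scale in either direction at that unadjusted p, 5 members were higher (7.32% of all tested genes) and 5 lower (9.83%) in Str vs. Ctrl. The Rec vs. Str counts were 5 higher (11.3%) and 6 lower (8.83%), and in Rec vs. Ctrl 0 were higher (2.49%) and 1, *slc1a1*, lower (1.52%). Non-overlap of the groups was more frequent than calls, among members and in the whole table. All Str libraries were above all Ctrl libraries in 6 members (14.4% of all tested genes) and below in 4 (16.1%). All Rec libraries were above all Str libraries in 4 members (11.8%) and below in 8 (17.2%). No member had all Rec libraries above all Ctrl libraries (0 of 22, against 2.56% of all tested genes). The median log2 fold change of the 22 tested members was -0.15 for Str against Ctrl, -0.11 for Rec against Str and -0.19 for Rec against Ctrl, against -0.00, 0.03 and 0.00 over all tested genes, and since members moved both ways these medians describe no single member. Of the 32 members, 16 carry the KEGG annotation for protein digestion and absorption, as do 0.619% of all genes. They lie on 29 scaffolds, with at most 2 on any scaffold.

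Leaving out a single library changed the number of calls among the members and in the whole table. Of the 5 calls in Str vs. Ctrl (5.88% of all genes), a fit lacking Ctrl-1 left 1 (3.17%), and fits lacking Ctrl-2 or Ctrl-3 left 0 (1.62% and 0.667%). A fit lacking Str-2 left 2 (3.55%), and those lacking Str-1 or Str-3 left 0 (2.54% and 0.748%). The 5 calls in Rec vs. Str (9.15%) became 2 when Str-1 was dropped (4.04%), 4 for Str-2 (4.81%) and 1 for Str-3 (1.43%). Dropping Rec-1 gave 5 calls (8.59%), dropping Rec-2 gave 1 (2.78%) and dropping Rec-3 gave 11 (8.84%). Rec-3 stood apart from Rec-1 and Rec-2 in the carriers and in some markers of other cells. Erythrocyte markers summed to 1807 FPKM there (other libraries 79.6 to 1307). Goblet cell markers summed to 853 FPKM (other libraries 117 to 222), of which *agr2* alone gave 709. The mucin-2-like locus LOC113653937 was at 131 FPKM in Rec-3 (other libraries 45.3 to 112). The part of other cells in the carrier levels of Rec-3 was not tested.

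Leaving out Rec-3 removed 1 fish and left Rec with 2 libraries, whose spread is then assumed to be that of the other groups. In that fit the Rec vs. Str comparison had 5 members that rose and 6 that fell (8.84% of all genes called), and Str vs. Ctrl had 4 of each (8.25%). Added in Rec vs. Str were *slc3a1* (log2 fold change 2.58, adjusted p = 0.0189), the *slc15a1* locus (3.33, adjusted p = 0.0273), *slc7a7* (1.62, adjusted p = 0.0318), *slc1a5* (-2.71, adjusted p = 0.0116), *slc38a7* (-2.32, adjusted p = 0.0158) and *slc1a4* (-1.97, adjusted p = 0.0366). Those gained in Str vs. Ctrl were *slc3a1* (adjusted p = 0.0390), *slc6a4* (adjusted p = 0.0236) and *slc1a5* (adjusted p = 0.0248).

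Many carriers of the same families are listed in the annotation only by the name of their product, without a symbol or a family number, and are therefore no members. A list of these, drawn from product text after the table was opened, holds 67 loci, of which 37 were tested. Of these 5 rose and 1 fell in Str vs. Ctrl, against 2.78% and 3.1% of all tested genes, with a median log2 fold change of -0.05. The counts in Rec vs. Str were 4 that rose and 6 that fell, against 5.03% and 4.11% of all tested genes, with a median of 0.11. They include partners of the members above.

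rBAT (*slc3a1*) and the tested b(0,+)AT-like loci listed by product were lowest in Str, unlike the named locus *slc7a9*, which had its lowest mean in Rec. The b(0,+)AT-like locus LOC113659713 was not tested, with at most 0.353 FPKM, in Str-3. LOC113659650, a b(0,+)AT-like locus, was at 18.1, 22.8 and 24 FPKM in Ctrl, 4.77, 8.26 and 3.08 in Str, and 24, 23.7 and 18.8 in Rec. It fell by 1.93 on the log2 scale in Str vs. Ctrl (SE 0.38, adjusted p = 0.0225, passing in 1 of 6 fits with a library left out) and rose in Rec vs. Str by 2.16 (SE 0.38, adjusted p = 0.0139, passing in 5 of 6). A further b(0,+)AT-like locus, LOC113659315, was at 2.97, 5.03 and 7.2 FPKM in Ctrl, 1.04, 2.34 and 0.141 in Str, and 7.84, 9.12 and 8.33 in Rec, and rose in Rec vs. Str by 2.94 (SE 0.79, adjusted p = 0.0491, passing in 1 of 6). Reads of near-identical loci may be split between them, so the level of each is uncertain.

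The 4F2 heavy chain showed loci with opposite orders of groups. LOC113635221, the most abundant, was at 338, 156 and 258 FPKM in Ctrl, 89, 174 and 86.8 in Str, and 456, 254 and 292 in Rec, and did not pass (Str vs. Ctrl -1.09, SE 0.47, adjusted p = 0.197). LOC113646906 was at 3.88, 7.9 and 9.27 FPKM in Ctrl, 27.1, 28.4 and 28.2 in Str, and 4.06, 4.48 and 9.59 in Rec. It rose in Str vs. Ctrl by 2.09 (SE 0.35, adjusted p = 0.0149), in 3 of 6 fits with a library left out, and fell by 2.13 in Rec vs. Str (SE 0.35, adjusted p = 0.0124), in 6 of 6. LOC113662082 was uneven between fish, with 4.8, 0.0162 and 4.67 FPKM in Ctrl, 0.0164, 0 and 8.78 in Str, and 0, 2.76 and 0.0113 in Rec. It passed in neither comparison (Str vs. Ctrl -0.16, SE 2.60, adjusted p = 0.981). Reads of near-identical heavy chain loci may also be split between them.

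The merged locus LOC113662102 with LOC113662086, another 4F2 heavy chain-like locus, rose by 2.12 (SE 0.32, adjusted p = 0.0122) and fell by 2.29 (SE 0.32, adjusted p = 0.00821), and passed in 6 of 6 fits with a library left out in both comparisons. A light chain for this heavy chain, LOC113644022 (Y+L amino acid transporter 2-like), had levels of 0.797, 1.39 and 1.94 FPKM in Ctrl, 9.78, 12.3 and 16.3 in Str, and 1.25, 0.237 and 0.373 in Rec. Its log2 fold changes were 3.30 (SE 0.59, adjusted p = 0.0175, passing in 2 of 6) and -4.27 (SE 0.62, adjusted p = 0.00832, passing in 6 of 6). *slc7a7* had its lowest mean in Str, whereas this locus had its highest there. A further tested Y+L transporter 2-like locus, LOC113661598, was at 0.535 to 2.15 FPKM and passed in neither comparison (Str vs. Ctrl 1.06, SE 0.39, adjusted p = 0.146).

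**Figure D4:**
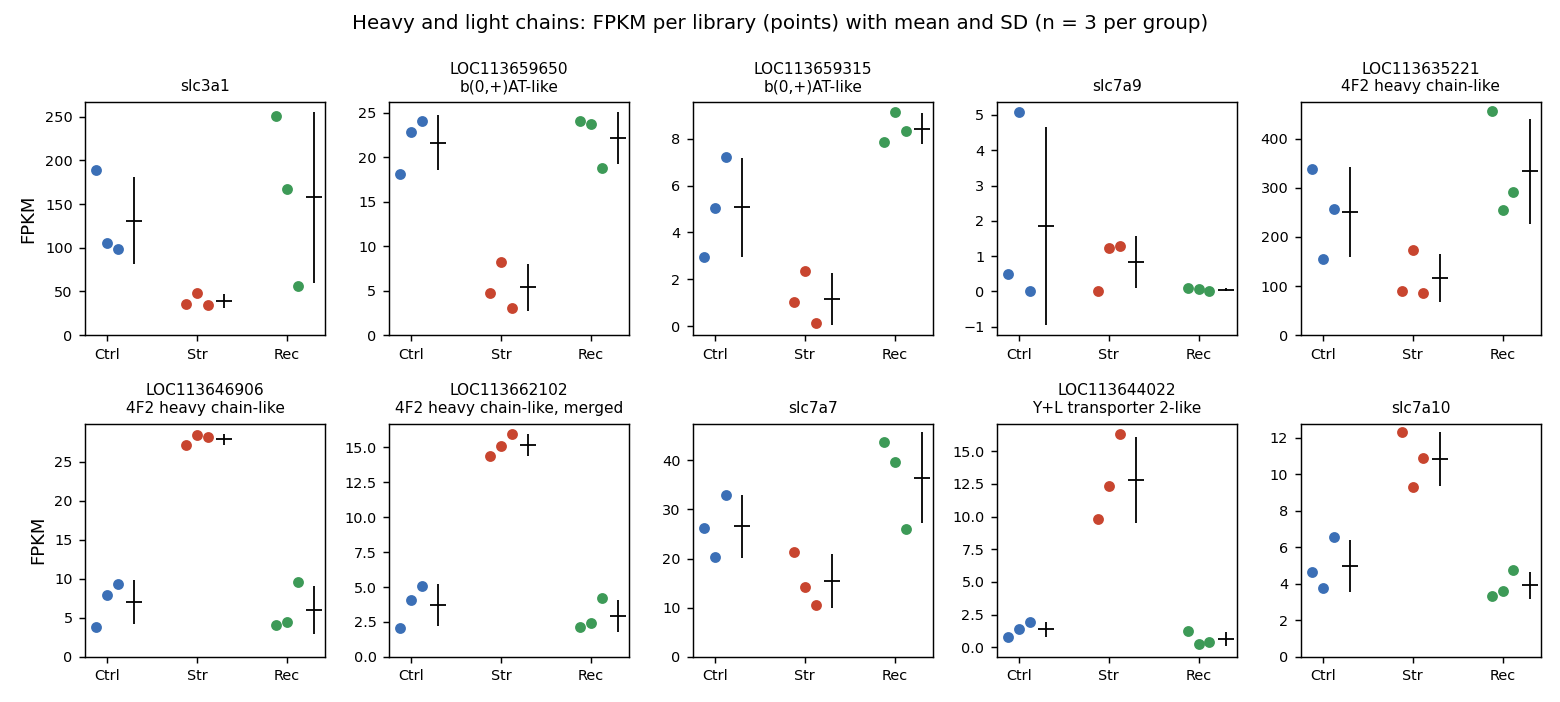
FPKM per library (coloured points) with the group mean and SD (black) for heavy chains and light chains of the heteromeric carriers, 3 libraries per group, each panel on its own linear axis. *slc3a1* and both plotted b(0,+)AT-like loci have their lowest points in Str. The 4F2 heavy chain-like locus LOC113646906 lies at 27.1 to 28.4 FPKM in Str and at 9.59 or less elsewhere.

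LOC113644953, named as a CAT1-like high affinity cationic amino acid transporter, had the largest rise on this list. It was at 0.878, 1.52 and 0.996 FPKM in Ctrl, 22.5, 11.3 and 21.9 in Str, and 2.92, 1.52 and 2.54 in Rec. It rose by 4.09 in Str vs. Ctrl (SE 0.37, adjusted p = 0.00269) and fell by 2.90 in Rec vs. Str (SE 0.35, adjusted p = 0.00717), and passed in 6 of 6 fits with a library left out in both. The other CAT1-like locus, LOC113643549, was at 0.334 to 3.91 FPKM and passed in neither comparison (Str vs. Ctrl -0.10, SE 0.82, adjusted p = 0.961). LOC113643073 (LAT4, a carrier of branched-chain and aromatic amino acids) was at 3.1 to 3.38 FPKM in Str against at most 1.28 elsewhere, and since 2 libraries outside Str reached 1 FPKM it too was tested only because it was high in Str. Its log2 fold changes were 1.80 (adjusted p = 0.0236, passing in 1 of 6) and -2.51 (adjusted p = 0.00871, passing in 6 of 6). LOC113635823, a CAT3 locus, fell by 2.32 in Rec vs. Str (adjusted p = 0.0197, passing in 3 of 6). The CAT3-like locus LOC113649059 did not pass there (-1.10, SE 0.64, adjusted p = 0.313).

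B(0)AT1, the main neutral amino acid carrier of the brush border, has a pair of loci here. LOC113633992 was at 130, 27.5 and 173 FPKM in Ctrl, 18.2, 13 and 9.14 in Str, and 256, 127 and 50 in Rec, and LOC113644174 at 52.5, 38.7 and 114, 45, 57.7 and 31.6, and 107, 119 and 179. Both rose in Rec vs. Str, by 3.55 (SE 0.80, adjusted p = 0.0292) and 1.68 (SE 0.43, adjusted p = 0.0417), each in 1 of 6 fits with a library left out. Against Ctrl in Str, LOC113633992 had a log2 fold change of -3.01 (SE 0.78, adjusted p = 0.0547) and LOC113644174 of -0.53 (SE 0.42, adjusted p = 0.505).

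Peptidases of the brush border release the peptides and amino acids to be taken up. A list of 20 loci holds such peptidases, partner proteins of the carriers, and the dipeptidases *pepd* and *cndp2*, the latter named as cytosolic. Of its 17 tested loci, 0 rose and 1 fell in Str vs. Ctrl (2.78% and 3.1% of all tested genes), with a median log2 fold change of -1.21. In Rec vs. Str 4 rose and 0 fell (5.03% and 4.11% of all tested genes), with a median of 1.64. Among the 4 were *enpep* (glutamyl aminopeptidase), LOC113651933 (aminopeptidase N-like, also among the enterocyte markers) and LOC113664000 (meprin beta). LOC113664000 stood at 47.9, 31.9 and 92.5 FPKM in Ctrl, 5.68, 5.76 and 7.32 in Str, and 201, 336 and 31.5 in Rec, a rise of 5.13 in Rec vs. Str (SE 0.87, adjusted p = 0.0132, passing in 5 of 6). The locus that fell in Str vs. Ctrl was a gamma-glutamyltranspeptidase 1-like one (log2 fold change -1.65, adjusted p = 0.0324, passing in 1 of 6).

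When amino acids are scarce, or under other stress, cells of mammals activate ATF4, which raises genes for amino acid supply and other stress genes. A list of 43 loci for genes of this response, among them transcription factors and signaling genes, held 39 tested ones. Of those, 4 rose and 0 fell in Str vs. Ctrl (median 0.25), against 2.78% and 3.1% of all tested genes. The counts for Rec vs. Str were 1 and 3 (median -0.27), against 5.03% and 4.11%. *chac1*, which degrades glutathione, was at 6.49, 6.16 and 7.62 FPKM in Ctrl, 231, 188 and 156 in Str, and 4.44, 2.99 and 7.47 in Rec, a rise of 4.87 (SE 0.36, adjusted p = 0.00155). *ddit4*, an inhibitor of mTOR signaling, *pycr1*, an enzyme of proline synthesis, and LOC113655797 (C/EBP beta-like), a transcription factor, also rose, and of the 4 only *pycr1* makes an amino acid. The rises of *chac1* and LOC113655797 passed in 6 of 6 fits with a library left out, that of *ddit4* in 3 and that of *pycr1* in 0.

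The transcript of *atf4* was at 428, 508 and 542 FPKM in Ctrl and 448, 442 and 499 in Str (log2 fold change -0.04, adjusted p = 0.956). The amount and activity of the ATF4 protein were not measured. Loci of *asns*, asparagine synthetase, did not pass (highest log2 fold change 2.67, adjusted p = 0.0791). These *asns* loci too were tested only because they were high in Str. Most of the 35 that did not pass were tRNA ligases and enzymes of amino acid synthesis, and they differed in direction. Among those lower in Str than in Ctrl without overlap (16.1% of all tested genes) were *eprs* (-0.99, adjusted p = 0.0793) and *phgdh* (-1.19, adjusted p = 0.122). LOC113642312 (phosphoserine aminotransferase, -1.13, adjusted p = 0.267) was another. The *asns* loci and *mthfd2* (1.18, adjusted p = 0.213) were among those higher without overlap (14.4%). *ddit3* (-0.15) and *atf3* (-0.41) overlapped. Among 6 tested carriers of amino acids outside the families, *ctns*, which exports cystine from lysosomes, fell by 1.50 in Str vs. Ctrl (SE 0.27, adjusted p = 0.0171). The other 5 did not pass, and 3.1% of all tested genes fell in this comparison.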

How the data were processed

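The authors used Cutadapt for trimming and a *Tachysurus fulvidraco* genome for mapping. HISAT and StringTie stand in the submitters' processing notes, with no version or build. The deposited table holds FPKM, computed by the authors per gene, and expected counts, deposited as whole numbers without scaling. How the counts were made is a step not given in the sources used here, and small values peak at 4, 8 and 12. No column of per-sample values was left out (0), and sequences of the genes were not used here. Results for some single genes are left out.

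Members and lists were chosen with earlier results of these data known. edgeR 4.0.16 (R 4.3.3) used TMM scaling and all 9 libraries, with genes at 1 FPKM or more in at least 3 libraries. SE was taken from the fold change and its F statistic. Named were members called in any comparison, the 10 of highest mean FPKM and textbook intestinal carriers. *slc6a19*, *slc3a2*, *slc7a8*, *slc38a2*, *slc6a6*, *slc43a2* and *slc36a1* were sought by product text alone. Other members, and loci listed by product, were named after their values were seen. Alternatives were DESeq2 1.42.0, RLE scaling, limma 3.58.1 on log2(FPKM + 1) or log2(FPKM + 0.1), other filters, counts divided by 4, fits of 2 groups, a replicate block and leaving out each library. Scripts were tested on simulated data. Python 3.11.15, pandas 2.3.3, numpy 2.4.6 and matplotlib 3.10.9 were used. All pairs of libraries within a group differed by more than sampling noise.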

Additional observations from a re-analysis of the deposited data

How the results depend on the processing

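None of the 10 calls turned direction in any alternative. The same 5 members were called in each comparison under RLE scaling and counts divided by 4, with 1 and 2 more in Rec vs. Str. In Str vs. Ctrl the 5 called members became 3 with no filter on low values (3.1% of all genes called, against 5.88%), 8 with only the 2 groups in the fit (7.9%), 10 at the study's screening thresholds, and 0 to 8 with 1 library left out. In Rec vs. Str the 5 became 9 with DESeq2, 11 at those thresholds and 1 to 11 with 1 library left out. In Rec vs. Ctrl 0 became 1 at those thresholds and stayed 0 in all other fits. DESeq2 called 18.5% of all genes in Rec vs. Str and 14.7% in Str vs. Ctrl. It called 7 members in Str vs. Ctrl, with *slc3a1* (adjusted p = 0.0152) and *slc6a4* (adjusted p = 0.0231) added. Added by DESeq2 in Rec vs. Str were the *slc15a1* locus (adjusted p = 0.000833), *slc3a1* (adjusted p = 0.00123), *slc7a7* (adjusted p = 0.00358) and *slc1a5* (adjusted p = 0.0343). The cause of these shifts was not tested.

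Deviations of samples with the same replicate number correlated between -0.26 and 0.19. Values for samples of unlike numbers were not computed, so whether the numbers pair the samples was not settled. With a replicate block, 2 members were called in Str vs. Ctrl (3.61% of all genes) and 4 in Rec vs. Str (5.18%). limma on log2(FPKM + 0.1) moved the median of all genes in Rec vs. Str by -0.15 and in Rec vs. Ctrl by -0.19, and log2(FPKM + 1) by -0.12 and -0.15. With 3 fish per group, a member that did not pass may still differ.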

Other observations

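Several abundant carriers are known only by their product and passed in neither comparison given here. LOC113634000, a B(0)AT3-like locus, was at 856, 639 and 184 FPKM in Ctrl, 44.1, 324 and 206 in Str, and 252, 8.66 and 47.6 in Rec, the highest single value of any carrier locus described here, with log2 fold changes of -1.56 (SE 1.12, adjusted p = 0.455) and -0.84 (SE 1.10, adjusted p = 0.681) in Str vs. Ctrl and Rec vs. Str. LOC113639100, a taurine transporter, was at 174, 209 and 60.5 FPKM in Ctrl, 8.78, 42.4 and 37.1 in Str, and 30.8, 20 and 54.9 in Rec, so that every library of Str and of Rec was below every Ctrl library (Str vs. Ctrl -2.31, SE 0.69, adjusted p = 0.0816). The taurine transporter-like locus LOC113645591, at 17.3 to 78.8 FPKM, overlapped with Ctrl in both Str and Rec (Str vs. Ctrl -0.95, SE 0.46, adjusted p = 0.258). LOC113650882, a CAT2-like cationic amino acid transporter, stayed between 67.9 and 154 FPKM in all 9 libraries. LOC113644969, a LAT4-like locus, was at 58.2 to 290 FPKM and did not pass (Str vs. Ctrl 0.23, SE 0.62).

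LOC113663131, a LAT2-like locus (18 to 49.6 FPKM), LOC113653976, a SNAT2-like locus (2.53 to 14.1 FPKM), and LOC113635983, a proton-coupled amino acid transporter 1-like locus (0.653 to 2.65 FPKM), did not pass in Str vs. Ctrl or Rec vs. Str. For LOC113635983 the Str libraries, at 0.653 to 1.08 FPKM, were all below the others (Str vs. Ctrl -1.14, SE 0.33, adjusted p = 0.0752). Liver markers summed to 670 to 4525 FPKM in Rec against 2.56 to 109 in Ctrl and 3.74 to 14.3 in Str. LOC113649718, apolipoprotein A-II, made up nearly all of this sum in Rec. Leukocyte markers summed to 74.4 to 186 FPKM in Ctrl, 32.3 to 44.9 in Str and 38 to 119 in Rec, and neuron and enteroendocrine markers to 16 to 28.3, 26.1 to 61.8 and 10.3 to 23.7. Exocrine pancreas markers summed to 36.1 to 354, 25.9 to 40.5 and 34.6 to 47.2, with 354 in Ctrl-3 and at most 50.5 in any other library. The pancreas list also took in LOC113637906 (4.07 to 16.1 FPKM) and LOC113647753 (7.94 to 25.4 FPKM), which are named as trypsin inhibitor-like.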
